A study of Arabidopsis thaliana with 36 samples.

Results

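A set of 66 Arabidopsis genes was lower in the MYB50 knockout than in wild-type Col-0, both in xylem and in cork. The genes are named by locus number alone in the probe table used, and are described here across 12 groups of arrays. The members were taken from the 11933 probe sets (of 22810 on the array) that the probe table gives 1 gene named by locus number alone. The rule asked that the group mean of log2(intensity + 16) be at least 0.8 lower in the MYB50 knockout than in Col-0 in each tissue, and that Col-0 xylem and cork differ by no more than 1.3. AT3G21670 was left out, and 6 further genes met the knockout part of the rule and were left out by the tissue limit alone. The differences between the MYB50 knockout and Col-0, and between the Col-0 tissues, therefore chose the members and carry no test here.

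The series measured total RNA of Arabidopsis on 36 ATH1 arrays, 3 per group, in work on dormancy and secondary growth. Xylem and cork came from Col-0, from a MYB61 knockout and from a MYB50 knockout, and the labels name no allele or background for either knockout. Hypocotyls came from Ler and from the mutants abi1 and aba1 in the Ler ecotype, and from Col-0 and the mutants max4 and axr1, for which the labels give no ecotype. Every RNA sample pooled 200 to 400 plants, grown on compost at 22 °C in 24 h of light. Plant age is not given in the labels, nor is whether the 3 pools of a group were grown apart, so p-values measure the spread between these pools. The mutated genes themselves had no probe set under their own name, and the mutant labels thus went unchecked at the level of the targeted gene.

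Abscisic acid (ABA) is the hormone of drought, seed dormancy and bud rest. ABA1 encodes an enzyme of its synthesis, so aba1 plants are short of the hormone, while ABI1 encodes a phosphatase that holds back ABA signalling, and abi1 plants respond poorly to it. MAX4 acts in the synthesis of strigolactones, hormones that restrain branching, and AXR1 in the response to auxin. MYB50 and MYB61 are related transcription factors of the MYB family, and MYB61 is known for roles in stomatal closure, xylem formation and resource allocation. In the hypocotyl of Arabidopsis the vascular cambium lays down wood inwards and phloem outwards, and cork forms at the surface.

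The members were chosen by level and not by pathway. From general knowledge of the locus numbers, not from the tables used here, they include a pair of CC-type glutaredoxins, small redox proteins of a plant-specific class (AT4G33040 and AT5G11930), and a pair of FCS-like zinc finger proteins, which bind the energy-sensing kinase SnRK1 (AT1G22160 and AT4G17670). RING-type proteins, most of which act as ubiquitin ligases, include AT1G14200, AT1G26800 and AT5G59000. AT3G09440 encodes a cytosolic Hsp70 chaperone and AT3G14200 a DnaJ-domain co-chaperone. The reference gene table held all 66 loci and gave none of them a symbol. They lay on each of the 5 chromosomes, with 18, 12, 8, 8 and 18 members on chromosomes 1 to 5 and 2 not found among the protein-coding genes. In 5 pairs, members lay within a few genes of each other: AT1G67340 and AT1G67360 had 1 protein-coding gene between them, as did AT4G13010 and AT4G13030, AT2G43630 and AT2G43660 had 2, AT2G21780 and AT2G21820 had 3, and AT5G59000 and AT5G59050 had 4.

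Array medians lay between 35.1 and 44.9, arrays of a group correlated at 0.958 to 0.993, and 36 of 36 arrays correlated best with an array of their own group. Scanner background ran from 64.23 to 131.51. The cork array of the MYB50 knockout numbered 1 is labelled a repeat, and leaving it out gave 64 members, of which 60 were shared with the 66. Of the marker lists, few genes had a named probe set, so tissues were checked by these alone. The suberin gene FACT summed to 13.8 to 21.4 in Col-0 xylem and 109 to 121 in Col-0 cork, 3 of 18 xylem markers to 121 to 338 and 81.2 to 109, and 4 of 15 phloem markers to 102 to 110 and 538 to 548. No marker stood at 0 on every array of a group.

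The values that chose the members are given first, as a description. AT1G22160 was at 1821, 2128 and 1827 in Col-0 xylem and at 519, 418 and 527.5 in MYB50 knockout xylem. In cork it was at 1556, 1638 and 1389 in Col-0 and at 101, 152 and 116.5 in the knockout, a ratio of 12.4. Its gap was thus wider in cork than in xylem, where the ratio was 3.94. The glutaredoxin gene AT4G33040 was at 1373, 1277 and 1328 in Col-0 xylem against 211, 232 and 196 in the knockout, and at 989, 925 and 827 against 141, 156 and 149 in cork. These ratios were alike, 6.22 in xylem and 6.14 in cork.

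AT5G59050 was at 518, 426 and 448 in Col-0 xylem and 68.8, 57.9 and 64.9 in the knockout, a ratio of 7.26, and the ratio was 4.25 in cork. The other genes with the lowest mean of both log2 differences were AT1G11700 at -2.02, a DUF584 protein gene, AT2G15560 at -1.91, AT5G67390 at -1.66, the glutaredoxin gene AT5G11930 at -1.62 and AT1G67360 at -1.62, of the rubber elongation factor type found on lipid droplets. At AT5G67390 the knockout values ran from 2.6 to 10.8, near the floor of the array, against 33.8 to 92.6 in Col-0.

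Over the 65 members that passed the filter on low values, the median log2 difference was -1.12 in xylem and -1.07 in cork. All probe sets tested had medians of -0.02 and 0.00, and limma called 24.2% of them lower in xylem and 20.9% lower in cork, which says nothing of genes chosen on these arrays. The member that did not pass, AT2G10900, was at 15.1 to 25.9 in Col-0 xylem and 2.4 to 9.4 in the knockout. Just inside the threshold stood AT4G39140 (-0.99 in xylem, -0.80 in cork), AT5G57610 (-0.91, -0.80) and AT2G21780 (-1.21, -0.80), and just outside it AT1G76590 (-0.79, -1.52), AT1G28190 (-0.78, -0.98) and AT2G35920 (-0.78, -0.97). The mirrored rule, at least 0.8 higher in both tissues, found 166 genes. In the same arrays the 3 xylem markers summed to 997 to 1460 in MYB50 knockout xylem and 121 to 338 in Col-0 xylem, and the 4 phloem markers to 1168 to 1299 in knockout cork and 538 to 548 in Col-0 cork. Not all phloem markers went that way in cork, since CLE41 had means of 965.5 in the knockout and 353.5 in Col-0, and SWEET11 61.3 and 109. FACT was at 216 to 242 in knockout cork and 109 to 121 in Col-0 cork, and overlapped in xylem. The 2 cambium markers summed to 537 to 576 in knockout xylem and 702 to 791.5 in Col-0 xylem. In cork they went the other way, at 325 to 363 and 232 to 254. The photosynthetic markers overlapped in both tissues. Some array measures differed without overlap as well. The 25S ribosomal RNA control was at 192 to 712 in MYB50 knockout xylem and 770 to 1928 in Col-0 xylem. In cork it was at 130 to 1388 in the knockout and 2659 to 3027 in Col-0. Array medians were 40.0 to 42.2 in the knockout against 35.9 to 36.9 in xylem, and 43.6 to 44.9 against 40.4 to 41.1 in cork. The part of these markers and measures in the members' values was not tested.

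The levels across the 12 groups are a description, since the rule itself set Col-0 xylem and cork high and the MYB50 knockout low. Their median intensity was highest in Col-0 xylem (268.9), followed by MYB61 knockout xylem (231), Ler hypocotyl (228), Col-0 cork (206), MYB61 knockout cork (193), abi1 (173.5) and aba1 hypocotyl (154). Lower still were max4 (141), axr1 (131) and Col-0 hypocotyl (125), and lowest MYB50 knockout xylem (110.4) and cork (101). The median of mean log2(intensity + 16) over the 7658 locus-number genes tested stayed between 6.43 and 6.51, while that of the members ran from 6.87 to 8.14. Among groups that the rule did not use, 9 of the 66 had their lowest mean in max4, 7 in aba1 and 6 in Col-0 hypocotyl, and 9 had their highest in Ler. The same counts over all probe sets were not made.

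**Figure D1:**
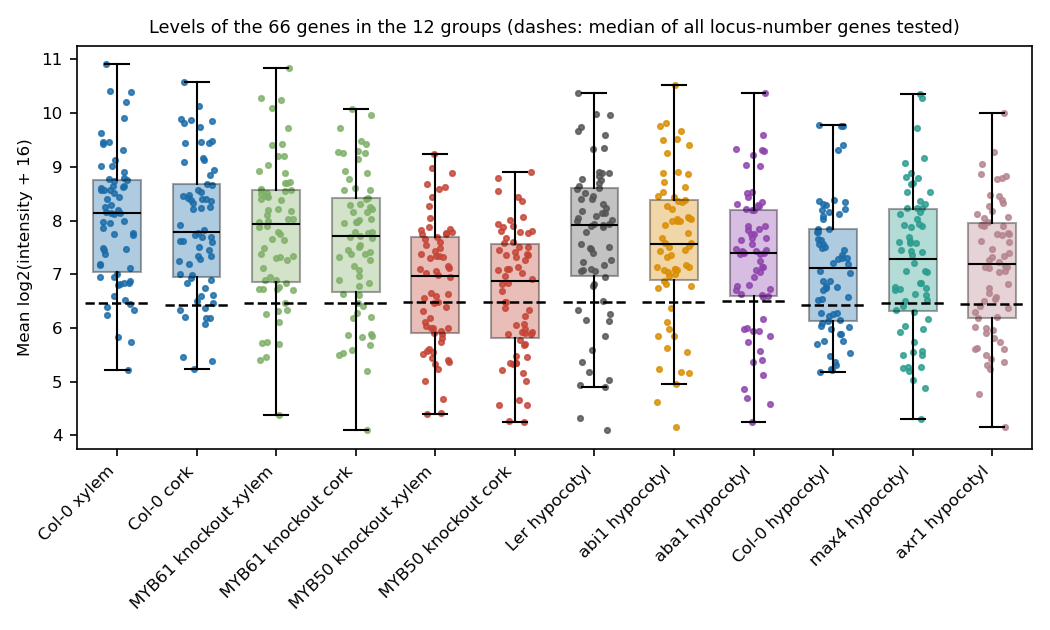
Mean log2(intensity + 16) of each of the 66 genes (points) in the 12 groups of 3 arrays, with boxes for the quartiles and the median. Dashed lines mark the median of the 7658 locus-number genes tested, which stays between 6.43 and 6.51, while the members' median runs from 6.87 in MYB50 knockout cork to 8.14 in Col-0 xylem.

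Wild-type hypocotyls themselves differed. Of the 66 genes, 45 had a higher mean in Ler than in Col-0 hypocotyl, with a median log2 difference of 0.53, against 0.01 over the locus-number genes tested. Ecotype and set of plants cannot be told apart in that comparison. Array measures differed without overlap as well. The 25S control was at 45.6 to 81.3 in Ler and 1982 to 2688.5 in Col-0, and scanner background at 115.35 to 131.51 and 64.56 to 89.8. The actin 3' to 5' ratio was 1.25 to 1.29 and 1.44 to 1.72. FACT was at 265 to 276 in Ler and 61.9 to 76.4 in Col-0, and the 3 xylem markers summed to 131 to 135 and 261 to 269.6. The part of these measures was not tested. AT5G59050 was at 31.0, 20.3 and 20.7 in Col-0 hypocotyl, below each MYB50 knockout array, while Ler hypocotyl had 214, 220.3 and 180.0. Col-0 hypocotyl also lay below the Col-0 tissues, which the rule chose as high. Of the 66 genes, 58 were higher in Col-0 xylem (median log2 difference 0.85) and 59 in Col-0 cork (0.77). Over the locus-number genes tested these medians were 0.02 and -0.003. The max4 and axr1 comparisons below take Col-0 hypocotyl as their reference.

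**Figure D2:**
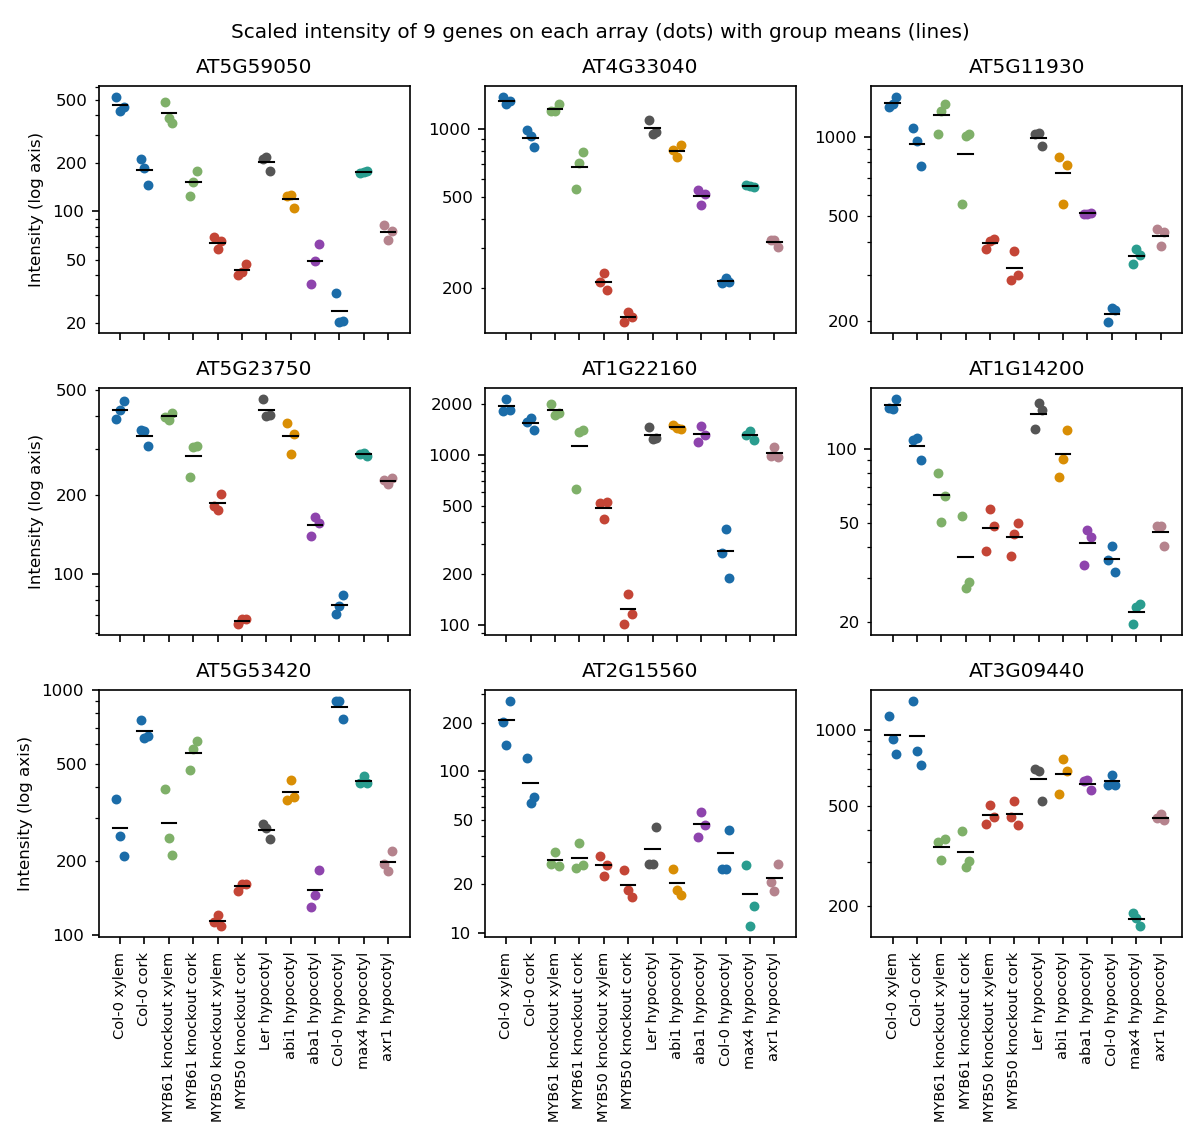
Scaled intensity (log axis) of 9 of the genes on each of the 36 arrays, 3 points per group with a line at the group mean. AT5G59050 and AT5G23750 are low in aba1 and lowest in Col-0 hypocotyl or MYB50 knockout cork, AT1G22160 is as high in aba1 as in Ler, and AT3G09440 is lowest in max4.

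The comparison of aba1 with Ler hypocotyls used no array of the rule and asked how these genes stand in plants short of ABA. Of 65 members tested, 34 were lower in aba1 and 1 was higher (limma, adjusted p under 0.05), or 52.3% and 1.54%. Over all 15924 probe sets tested limma called 15.3% lower and 11.8% higher. The members were brighter than most probe sets, with a median of 168.5 against 89.1. Among the brighter probe sets, above the 50th percentile of intensity, 20.1% were lower and 13.2% higher. The members' median log2 difference was -0.35, from -1.78 to 0.43, against -0.02 over all probe sets, and 54 lay below 0. Both groups' arrays did not overlap for 41 members (63.1%), as for 45.3% of all probe sets. In bulk tissue, fewer cells of a type and less RNA per cell cannot be told apart.

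AT5G59050 stood at 35, 49 and 63 in aba1 and at 214, 220.3 and 180.0 in Ler. Each aba1 array was below each Ler array, and the mean was 4.18-fold lower (log2 difference -1.78, SE 0.14, limma adjusted p = 3.6e-11). The RING-type gene AT1G14200 was at 34.1, 46.9 and 44.1 in aba1 and 121, 153 and 143 in Ler (log2 -1.43, SE 0.15, limma adjusted p = 1.62e-08). It fell 3.34-fold, again without overlap. AT5G23750 encodes a remorin, a protein of plasma membrane domains, and was at 140.5, 165 and 157 in aba1 against 464, 399.8 and 403 in Ler. That was a 2.73-fold fall with little spread (log2 -1.36, SE 0.10, limma adjusted p = 2.73e-12). AT1G69570, which encodes a Dof-type transcription factor, was at 171, 139 and 176 against 281, 515 and 505, with the Ler arrays further apart than those of aba1. Its fall was 2.68-fold (log2 -1.30, SE 0.22, limma adjusted p = 2.53e-05).

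Both glutaredoxin genes fell by about the same fold. AT4G33040 was at 539.6, 463 and 515.5 in aba1 and 1093, 948 and 963.5 in Ler, 1.98-fold lower (log2 -0.96, SE 0.09, limma adjusted p = 1.74e-09). AT5G11930 was at 511, 511 and 513 in aba1 and 1021, 1034 and 921 in Ler, 1.94-fold lower (log2 -0.93, SE 0.16, limma adjusted p = 2.81e-05). The paired FCS-like zinc finger genes went apart. AT4G17670 was at 226, 224 and 220.5 in aba1 and 422, 377 and 400.4 in Ler and fell 1.79-fold (limma adjusted p = 8.28e-09). AT1G22160 was at 1181, 1481 and 1306 in aba1 and 1447, 1237 and 1262 in Ler, overlapping groups with a log2 difference of 0.01 (SE 0.20, limma adjusted p = 0.988).

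Smaller falls followed in genes of other roles. AT5G59000, of the RING/FYVE/PHD type, was at 107, 126 and 142.5 in aba1 against 219, 213 and 236 in Ler. AT5G53420, with the CCT motif of flowering and light regulators, was at 131, 145.5 and 184 against 283, 273 and 246. The sugar transporter-like gene AT5G18840 was at 149, 162 and 164 against 239.7, 302 and 283. Their log2 differences were -0.76, -0.75 and -0.73, and none of the 3 overlapped between the groups. The 1 member that rose, AT1G43590, was dim, at 24.6, 24.6 and 27.0 in aba1 and 16.5, 11.7 and 16.4 in Ler (log2 0.43, SE 0.12, limma adjusted p = 0.00538).

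The 30 members not called included some of those furthest down in the MYB50 knockout. Besides AT1G22160, AT2G15560, a putative endonuclease or glycosyl hydrolase gene, had a log2 difference of 0.38 (SE 0.20, limma adjusted p = 0.172) and AT5G67390 one of -0.04 (SE 0.23, limma adjusted p = 0.934). The Hsp70 gene AT3G09440 was at -0.05 (SE 0.15, limma adjusted p = 0.862). Across the 66 members the aba1 differences and those of the MYB50 knockout correlated weakly, at r = 0.29 for xylem and 0.18 for cork (Spearman's rho 0.21 and 0.19), a description over genes on the same arrays. The genes of the mirrored rule were called the other way more often, with 41 of 163 higher in aba1 (25.2%) and 11 lower (6.75%). Of all probe sets 11.8% were called higher and 15.3% lower.

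The wider state of these tissues was read from lists of named genes. Of 39 ABA-responsive genes 3 were tested and 2 were lower in aba1, the dehydrin genes LTI30 (74.5 against 408, log2 -2.13) and COR47 (364 against 684, log2 -0.83). Of the nitrogen list 3 of 42 were tested, with the nitrate transporter gene NRT2.5 lower (82.9 against 451, log2 -2.25) and the nitrate-response regulators NIGT1.3 (log2 2.05) and NIGT1.2 (log2 0.92) higher. The auxin-responsive list had 2 of 3 tested genes lower (WES1 and HAT2), the senescence list 1 of 4 higher (WRKY53) and 1 lower (PPDK), the sugar starvation list 1 of 8 higher (AT1G68440) and 2 lower (MCCA and AKINBETA1), and the clock list none of 1. No member belonged to a list.

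Other measures moved with the 2 groups. The 25S ribosomal RNA control was at 45.6 to 81.3 in Ler and 378 to 1392 in aba1, and the actin 3' to 5' ratio at 1.25 to 1.29 and 1.36 to 1.45. Summed markers were lower in aba1 than in Ler without overlap for xylem (3 of 18 markers, 102 to 117 against 131 to 135), cambium (2 of 13, 260.0 to 267 against 412 to 456.5) and cork (1 of 13, 133 to 179.7 against 265 to 276). They overlapped for phloem (4 of 15, 403 to 475 and 464 to 637.5) and photosynthetic tissue (5 of 19, 1087 to 1270.4 and 1207 to 1355), and no marker was at 0. None of the 3 xylem markers was called by itself. Of the 2 cambium markers PHV was called lower (log2 -0.87) and MOL1 was not called (-0.15). Of the single phloem markers SWEET11 was lower in aba1 (98.9 against 258). The part of these measures in the members' differences was not tested. With scanner background as a covariate, 34 members were lower, and these were the same 34.

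**Figure D3:**
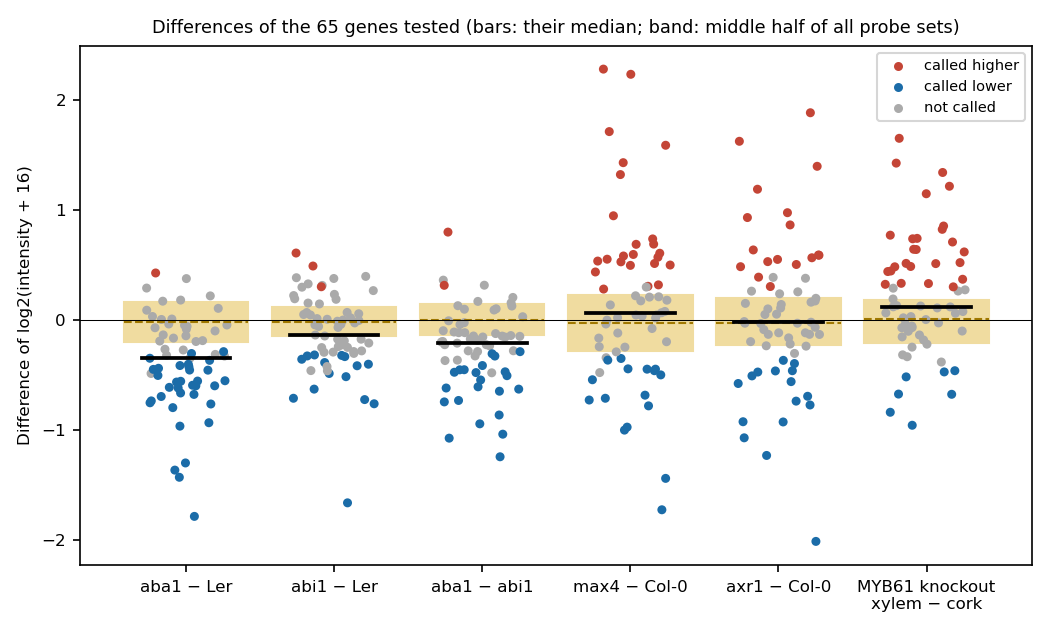
Difference of log2(intensity + 16) for the 65 genes tested in 6 comparisons, coloured by limma's call, with a bar at their median, a band for the interquartile range of all 15924 probe sets and a dashed line at the median of those. In aba1 against Ler 34 points are called lower and 1 higher, and in max4 against Col-0 24 are called higher and 16 lower.

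The abi1 hypocotyls, poor in ABA response, were compared with the same Ler arrays, so their differences are not independent of those of aba1. Of the 65 members 15 were lower (23.1%) and 3 higher (4.62%), where limma called 5.76% and 4.67% of all probe sets and 7.76% and 6.08% of the brighter ones. The median log2 difference was -0.14. The Dof-type gene AT1G69570 was at 138, 83.2 and 154.5 in abi1 (log2 -1.66, SE 0.22, limma adjusted p = 1.85e-06). It was 3.46-fold lower than in Ler. AT5G59050 was at 126, 127 and 104.5 in abi1, between aba1 and Ler with no overlap with either, and its log2 difference from Ler was -0.71 (SE 0.14, limma adjusted p = 0.000911). AT1G11700 fell by 0.76 (SE 0.21) and AT3G56080, of the methyltransferase superfamily, by 0.72 (SE 0.17) on the log2 scale. Higher were AT2G29670, a tetratricopeptide-repeat gene (577, 646 and 561 in abi1, 449.7, 367 and 343 in Ler, log2 0.61, SE 0.11, limma adjusted p = 0.000202), AT5G53420 (log2 0.49, limma adjusted p = 0.0413) and AT4G27900, also with a CCT motif (log2 0.30, limma adjusted p = 0.00851). The count of lower members rested on single arrays, at 4 without abi1 replicate 2 and 9 without Ler replicate 1, and was 7 in a fit of the Ler and abi1 arrays alone. AT5G53420 lost its call under 8 alternatives, among them the replicate block. AT1G11700 lost its call without Ler replicate 2, Ler replicate 3 or abi1 replicate 2, and AT3G56080 without abi1 replicate 2. AT4G27900 lost its call without Ler replicate 3 and in the fit of the Ler and abi1 arrays alone. The suberin gene FACT (103 to 122 in abi1, 265 to 276 in Ler) and the summed xylem markers (91.1 to 119 against 131 to 135) also differed without overlap. So did the 5 photosynthetic markers, summed to 659 to 1148 in abi1 and 1207 to 1355 in Ler. None of the 3 xylem markers was called, and 1 of the 5 photosynthetic ones was, lower. The 25S control (103 to 419 against 45.6 to 81.3) and the actin ratio (1.49 to 1.85 against 1.25 to 1.29) did not overlap. Scanner background did not overlap either, at 81.84 to 110.9 in abi1 and 115.35 to 131.51 in Ler. The part of these measures was not tested.

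Set directly against abi1, aba1 had 22 members lower (33.8%) and 2 higher (3.08%), where limma called 8.07% and 7.35% of all probe sets and 10.7% and 8.66% of the brighter ones. This comparison uses the aba1 arrays again but not those of Ler. AT5G53420 differed most, at 131, 145.5 and 184 in aba1 and 355.5, 427 and 365 in abi1 (log2 -1.24, SE 0.16, limma adjusted p = 1.02e-06). The means of the mutants lay on opposite sides of that of Ler, but the abi1 call against Ler was lost when any single Ler array was left out. AT5G59050 (log2 -1.07, SE 0.14), the remorin gene AT5G23750 (-1.04, SE 0.10) and AT1G14200 (-0.94, SE 0.15) were lower in aba1 as well, each without overlap. AT1G69570, low in both mutants, differed by 0.36 (SE 0.22, limma adjusted p = 0.29). Higher in aba1 were AT2G15560, at 39.1, 55.8 and 46.6 against 24.9, 18.6 and 17.3 (log2 0.80, SE 0.20, limma adjusted p = 0.00534), and AT4G13030 (log2 0.32, SE 0.10, limma adjusted p = 0.0378). The second of these lost its call under 5 alternatives, among them each fit that left out an aba1 array. The 4 phloem markers summed to 403 to 475 in aba1 and 510 to 623 in abi1. The 2 cambium markers summed to 260 to 267 and 352 to 448. Of these 2 lists SWEET11 (log2 -0.97) and PHV (-0.71) alone were called. FACT was at 133 to 179.7 in aba1 and 103 to 122 in abi1, and the actin ratio at 1.36 to 1.45 and 1.49 to 1.85. The part of these measures in the members' differences was not tested.

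In max4 hypocotyls, compared with Col-0 hypocotyls, 24 of the 65 members were higher (36.9%) and 16 lower (24.6%), where limma called 20.9% and 23.7% of all probe sets and 24.3% and 29.1% of the brighter ones. The share of lower members was thus near that of all probe sets. The median log2 difference was 0.07. AT5G59050 was at 173, 177 and 179 in max4 and at 31.0, 20.3 and 20.7 in Col-0, 7.35-fold higher (log2 2.28, SE 0.14, limma adjusted p = 4.95e-14). The FCS-like zinc finger gene AT1G22160 was at 1301, 1378 and 1220.4 against 265, 367 and 188, 4.76-fold higher (log2 2.23, SE 0.20, limma adjusted p = 8.12e-11). AT5G23750 was at 286, 289.5 and 283 against 70.4, 75.8 and 83.2, 3.74-fold higher (log2 1.71, SE 0.10, limma adjusted p = 4.08e-15). AT1G67340, with a MYND-type zinc finger, rose 3.34-fold, and the glutaredoxin gene AT4G33040 was at 563, 558 and 556 against 209, 222 and 212 (log2 1.32, SE 0.09). These groups lay far apart relative to their spread. The Col-0 hypocotyl reference was itself low for AT1G22160, which stood at 1447, 1237 and 1262 in Ler hypocotyl.

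The falls in max4 were led by a chaperone. The Hsp70 gene AT3G09440 was at 188, 179 and 167 in max4 and 605, 663 and 604 in Col-0, 3.5-fold lower (log2 -1.72, SE 0.15, limma adjusted p = 1.13e-10). AT1G07280, a tetratricopeptide-repeat gene, was at 20.5, 25.8 and 21.2 against 93.1, 90.0 and 81.4 (log2 -1.44, SE 0.18). AT5G67390 fell by 1.00 (SE 0.23) and AT5G53420 by 0.97 (SE 0.16) on the log2 scale. The DnaJ-domain gene AT3G14200 was lower as well, at 32.4, 25.7 and 29.8 against 52.7, 90.0 and 48.1 (log2 -0.78, SE 0.19, limma adjusted p = 0.00131).

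The axr1 hypocotyls shared those Col-0 arrays and gave 17 members higher (26.2%) and 16 lower (24.6%), beside 17.5% and 19.2% of all probe sets and 20.4% and 23.7% of the brighter ones. The median log2 difference was -0.02. AT1G22160 was at 981, 1108 and 964 in axr1 (log2 1.88, SE 0.20, limma adjusted p = 5.95e-09). AT4G09890, a gene for a protein of unknown function, was at 509, 606 and 711 against 161, 158 and 248 in Col-0 (log2 1.62, SE 0.20). AT5G23750 rose 2.97-fold and AT5G59050 3.11-fold. In the other direction AT5G53420 was at 195.5, 183 and 219.6 against 901, 899 and 756.5, 4.27-fold lower and without overlap (log2 -2.01, SE 0.16, limma adjusted p = 2.07e-11). AT5G67390 (log2 -1.23, SE 0.23), AT1G07280 (-1.07, SE 0.18) and AT5G61820, a Nod19-like gene (-0.92, SE 0.14), fell too. The mirrored set had 82 of 163 genes higher in axr1 (50.3%) and 14 lower (8.59%). In max4 it went both ways, with 51 higher (31.3%) and 46 lower (28.2%).

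Tissue markers differed between these hypocotyls as well. The 3 xylem markers summed to 261 to 269.6 in Col-0, 147 to 169 in max4 and 487 to 537 in axr1, and the 4 phloem markers to 831 to 864, 433 to 446 and 535 to 559. Single phloem markers went both ways in max4, with CLE41 (log2 -1.23) and SWEET11 (-1.28) lower and OPS higher (0.66). The 2 cambium markers summed to 349 to 363 in Col-0, 495 to 546 in max4 and 442 to 497 in axr1, and FACT was at 61.9 to 76.4, 88.9 to 105 and 137 to 198. The 5 photosynthetic markers summed to 736 to 781, 644 to 652.5 and 978 to 1088, and in max4 only PSAE-1 and PSBW of the 5 were called, both lower. No group overlapped Col-0 for any of these sums, and their part in the members' differences was not tested.

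The aba1 and max4 comparisons used separate arrays. Those of max4 and axr1 shared the Col-0 hypocotyl arrays, where 45 of the 66 members had a lower mean than in Ler. Of the 34 members lower in aba1, 15 were higher in max4 (44.1% of the 34 and 62.5% of the 24 higher in max4), 6 were lower there (17.6%) and 13 were not called. Among all 65 members 36.9% were higher in max4, and of the 2444 probe sets lower in aba1 29.7% were higher and 21.7% lower in max4. Of the same 34, 11 were higher in axr1 (32.4% of the 34 and 64.7% of the 17 higher in axr1) and 7 were lower (20.6%). These shares were near those of all members in axr1, 26.2% and 24.6%, and of the probe sets lower in aba1 25.2% were higher and 14.4% lower in axr1. The differences between these shares were not tested. Among the 15 were AT5G59050, the remorin gene AT5G23750, both glutaredoxin genes, AT4G17670, AT5G18840 and AT5G59000. The 6 lower in both aba1 and max4 were AT5G53420, AT5G61820, AT5G14530, AT3G56730 and the RING-type genes AT1G14200 and AT1G26800. The Dof-type gene AT1G69570 was among the 11 that were higher in axr1 (log2 0.59, SE 0.22). Across the 66 members the log2 differences of aba1 and max4 correlated at r = -0.38 (Spearman's rho -0.30), and those of aba1 and axr1 at -0.39 (rho -0.42), as a description over genes that share arrays and are not replicates.

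**Figure D4:**
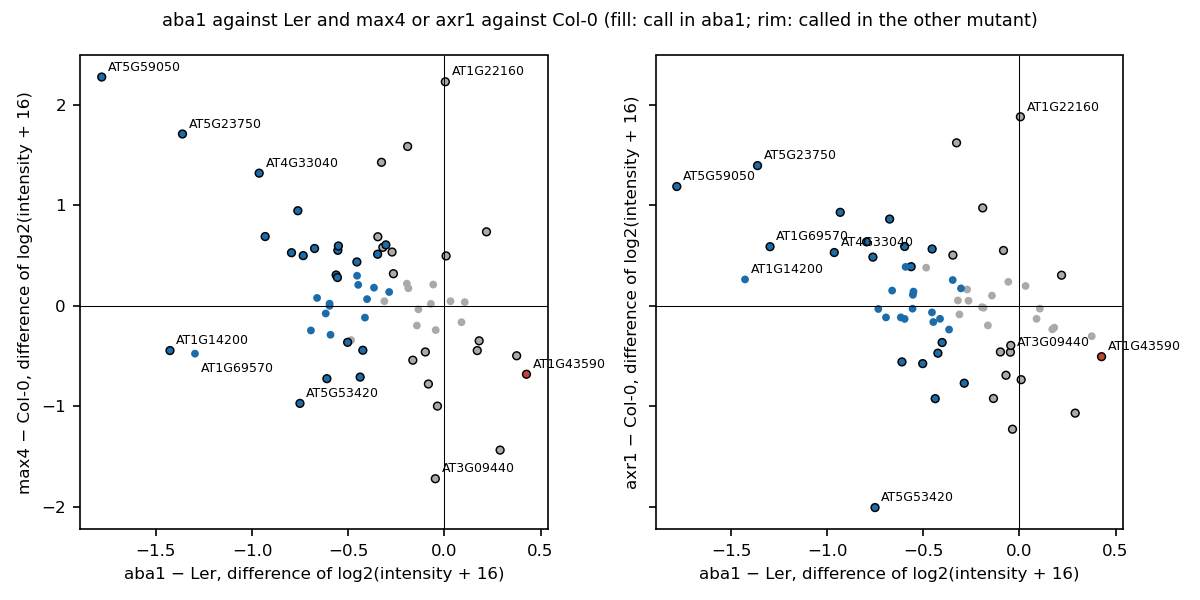
Difference of log2(intensity + 16) in aba1 against Ler (horizontal) and in max4 (left) or axr1 (right) against Col-0 hypocotyl (vertical), 1 point for each of the 65 genes tested. Points at the upper left, led by AT5G59050 at -1.78 and 2.28, are lower in aba1 and higher in max4, while AT5G53420 lies at the lower left in both panels.

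Tissue was compared within the MYB61 knockout, since the rule limited the tissue difference in Col-0 arrays alone. Limma called 1.88% of all probe sets between MYB61 knockout and Col-0 in xylem and 8.0% in cork, so that limit can carry over. The members' median xylem minus cork difference was 0.12 here and, as a description, 0.08 in Col-0. Of 65 members 26 were higher in xylem (40.0%) and 7 higher in cork (10.8%), where limma called 15.3% and 18.6% of all probe sets, and 19.0% each way among the brighter ones. AT1G11700 was at 225, 283 and 279 in xylem and 32.2, 102 and 105 in cork, 3.29-fold higher (log2 1.65, SE 0.21, limma adjusted p = 1.45e-07). The DnaJ-domain gene AT3G14200 was at 224, 87.5 and 140.3 in xylem and 40.4, 41.1 and 46.5 in cork (log2 1.42, SE 0.19, limma adjusted p = 3.88e-07). AT5G59050 (log2 1.34, SE 0.14) and AT4G09890 (log2 1.21, SE 0.20) were higher in xylem as well. Higher in cork were AT5G53420 (log2 -0.95, SE 0.16), the sugar transporter-like gene AT5G18840 (-0.84, SE 0.15), AT5G59000 (-0.67, SE 0.13) and AT1G08230, a transporter of gamma-aminobutyric acid (-0.52, SE 0.15). Phloem markers summed to 98.3 to 103 in this xylem and 564 to 658 in this cork. The 5 photosynthetic markers summed to 410 to 551 in xylem and 767 to 1292 in cork, and FACT was at 11.7 to 20.2 and 76.4 to 90.8. The 2 cambium markers went apart, with PHV higher in xylem (617 against 127, log2 2.15) and MOL1 higher in cork (126 against 70.7, log2 -0.71). The part of these tissue markers was not tested. The near neighbours AT5G59000 and AT5G59050 lay on opposite sides of this comparison. The first cork array was apart from the other 2 for some members, with AT1G22160 at 627 against 1358 and 1393 and AT5G11930 at 556 against 1003.5 and 1023. Without it 19 members were higher in xylem and 9 in cork, and in a fit of the MYB61 knockout arrays alone the counts were 14 and 4. AT1G08230 lost its call in both of these fits, with array weights and without xylem replicate 2.

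The MYB61 knockout was set beside Col-0 as a description, because the Col-0 arrays had chosen the members as high. The members' median log2 difference was -0.12 in xylem and -0.25 in cork, with 55 and 56 of 65 below 0, where all probe sets had medians of -0.02 and 0.00. AT4G33040, far lower in the MYB50 knockout by the rule, was at 1195, 1199 and 1276 in MYB61 knockout xylem against 1373, 1277 and 1328 in Col-0. AT1G22160 was at 1985, 1724 and 1756 against 1821, 2128 and 1827. In cork AT4G33040 was lower in the MYB61 knockout without overlap, at 542, 705 and 786 against 989, 925 and 827 in Col-0. AT1G22160 overlapped in cork, at 627, 1358 and 1393 against 1556, 1638 and 1389. Of all probe sets 23.2% did not overlap between these cork groups. Scanner background did not overlap in cork either, at 89.4 to 120.8 in the MYB61 knockout and 69.38 to 75.52 in Col-0. Nor did the 25S control (186.5 to 2389 against 2659 to 3027) or FACT (76.4 to 90.8 against 109 to 121). In xylem these 3 measures overlapped. Their part was not tested. A few members were low in both knockouts. AT2G15560 was at 202, 146 and 274 in Col-0 xylem, at 26.7, 31.8 and 26.1 in the MYB61 knockout and at 29.9, 22.5 and 26.2 in the MYB50 knockout. Both knockouts lay in the range of the hypocotyl groups for this gene, where no array was above 55.8.

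The chaperone gene AT3G09440 was lower in the MYB61 knockout than in the MYB50 knockout. It was at 1132, 919 and 803 in Col-0 xylem, 358.5, 305 and 368 in the MYB61 knockout and 422, 501 and 452 in the MYB50 knockout, and in cork at 396, 284 and 302 in the MYB61 knockout. AT3G14200 and AT1G14200 followed, with mean log2 differences over both tissues of -1.15 and -1.13. AT1G14200 was at 80.0, 50.6 and 64.7 in MYB61 knockout xylem, 38.5, 57.0 and 48.9 in the MYB50 knockout and 146, 145 and 159 in Col-0. At the other end stood AT1G33680, a KH-domain gene for an RNA-binding protein, at 0.30, AT1G08230 at 0.14, AT5G18840 at 0.10 and the histone gene AT2G28720 at 0.06.

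**Figure D5:**
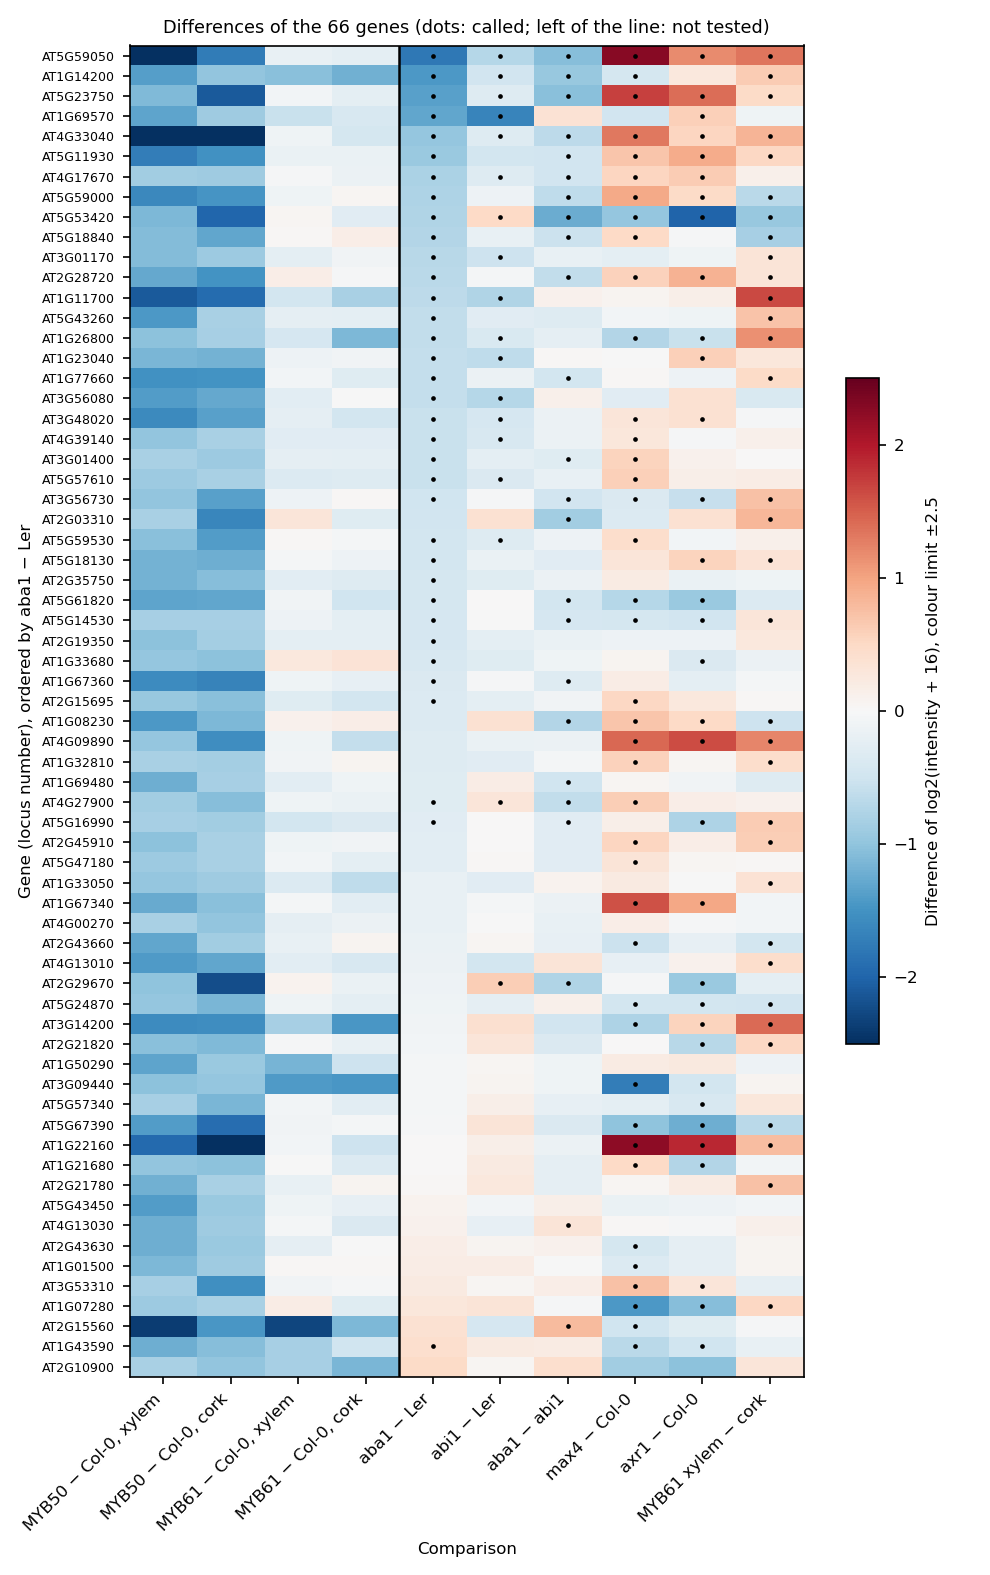
Differences of log2(intensity + 16) for the 66 genes (rows, ordered by aba1 minus Ler) in 10 comparisons (columns), with dots where limma called the difference and no test left of the line. The columns of the MYB50 knockout are blue by the rule, and those of the MYB61 knockout are pale but for a few rows such as AT2G15560 and AT3G09440. The aba1 column is blue in its upper rows, where max4 and axr1 are mixed. Of the 34 genes called lower in aba1, 15 were called higher and 6 lower in max4, and 11 higher and 7 lower in axr1.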

How the data were processed

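The authors deposited a linear, scaled intensity for each of 22810 probe sets on each of 36 arrays. From the deposited values, each array had been scaled to a 2% trimmed mean of 100.01, and intensities ran from 0 to 7005.3. Which software made them is not stated in those sources.

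Intensities were transformed as log2(value + 16), which understates the fold change of dim genes, with no further normalization. Folds are ratios of group means of intensity. Control probe sets (64) were left out, and 15924 probe sets with a mean intensity at or above the 30th percentile (14.7) were tested. limma 3.58.1 in R 4.3.3 fitted 12 group means over all 36 arrays (24 residual degrees of freedom, variance prior with an intensity trend and 6.26 degrees of freedom). Contrasts were two-sided, with Benjamini-Hochberg adjustment over 15924 probe sets, and "called" means an adjusted p under 0.05. The number of arrays, 3 per group, limits the precision. The fit was tested on simulated data. Python 3.11.15, pandas 2.3.3, numpy 2.4.6, scipy 1.17.1 and matplotlib 3.10.9 made tables and figures.

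The probe table gave 1 gene for 13513 probe sets, several for 503 and none for 8730. Neighbouring genes were read from the RefSeq table of assembly TAIR10.1. It gave no descriptions, and sequences were not used here, so planned function classes and promoter motifs were not computed. Roles of members are general knowledge of the loci.

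The members and the gene lists were chosen with earlier results of these data known. Genes named were members called, without overlap of the groups, with the largest changes: up to 10 each way in aba1 against Ler and up to 4 each way in the other tested comparisons. Also named were the 8 lowest in the MYB50 knockout, the 4 highest and 4 lowest in the MYB61 knockout, 3 genes on each side of the threshold, neighbours, and up to 4 called genes per list. Others (AT1G26800, AT3G56730, AT5G14530, AT2G10900) and the values of a named gene in a comparison where the rule did not pick it were chosen after values were seen.

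Alternatives were quantile normalization, pseudocounts of 1 and 64, array weights, scanner background as a covariate, the replicate number as a block, no filter or one at the 50th percentile, fits limited to the arrays compared, and fits without each array.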

Additional observations from a re-analysis of the deposited data

How the results depend on the processing

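The count of members lower in aba1 than in Ler was 34, and 33 to 40 under 9 other settings and 31 to 34 without each array in turn. The single member higher there became 3 with array weights, 0 with the filter at the 50th percentile and 2 with no filter. Against abi1, 22 lower members became 20 to 27 and, without each array, 15 to 22, and the 2 higher ones became 1 in a fit limited to the arrays compared and 1 to 3 without each array. In abi1 against Ler the 15 lower members became 7 in the fit limited to the arrays compared and 4 to 16 without each array, and the 3 higher ones 8 with array weights and 1 to 3 without each array. In max4, counts ran over all settings from 21 to 25 higher and 13 to 18 lower, and in axr1 from 14 to 20 and 13 to 18. Within the MYB61 knockout, 26 members higher in xylem and 7 in cork became 14 and 4 in the limited fit, and 19 to 27 and 5 to 9 without each array. The number of members itself, 66, was 149 with a pseudocount of 1 (62 shared), 29 with a pseudocount of 64, 150 at a threshold of -0.6, 28 at -1.0, and 57 to 69 without each array. In the limited fits fewer arrays set the spread, and for other changes the cause was not tested. Of 717 refits of 48 results for named genes, 694 kept the call, 23 lost it and 0 reversed. Same-numbered arrays did not deviate together in every pair (aba1 with Ler 0.01, 0.05 and 0.06), so the numbers were not taken as pairs, and with the replicate block 35 members were lower in aba1 and 13 in abi1. Probe sets near the floor, such as AT2G10900 and AT5G67390, are measured least well.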
